A study of Rattus norvegicus with 49 samples.

Results

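Aldo-keto reductases are enzymes that use NADPH to reduce aldehydes and ketones to alcohols. In liver they reduce reactive aldehydes from foreign compounds and from lipid peroxidation, and some members reduce steroids instead. Furan is oxidised in liver by a cytochrome P450 to a reactive dialdehyde, cis-2-butene-1,4-dial, so genes for enzymes that reduce aldehydes are of interest after dosing with furan. A set of 8 genes was taken by name: Akr7a3, Akr7a2, Akr1a1, Akr1b1, Akr1b7, Akr1b8, Akr1c14 and Akr1d1. Each was measured by 1 probe of the 30367 gene probes on the array, and all 8 probes were among the 17661 that passed the filter on dim signals. That filter asked for 4 or more arrays of some group with liver signal well above background. The probes with a gene symbol named 15154 genes in all.

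Livers came from F344 rats of both sexes. The strain is inbred, and dosing began at 7 to 8 weeks of age. Furan in corn oil was given by gavage 5 days a week for 90 days, at 2 mg/kg, at 0.5 mg/kg, at 0.12 mg/kg or at 0.03 mg/kg, and controls received the oil alone (0 mg/kg). The labels give separate rats, 5 in each of the 10 groups except 4 males at 0.03 mg/kg, which makes 49 arrays. On every array the Cy5 channel held liver RNA and the Cy3 channel a universal reference RNA from rat, and each value below is the log2 ratio of liver over reference unless it is called a difference. Whole liver was used, so fewer cells of a type and less RNA per cell cannot be told apart.

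The arrays came from 8 slides, 2 of which (slides 5 and 6) held no control. Differences below were fitted with slide as a block unless said otherwise. Folds with a floor on dim signals instead compare plain group means of the liver channel, with no slide block. A p-value beside such a fold belongs to the fitted log2 ratios. On 48 arrays 37.9% to 71.1% of liver spots were well above background. On the other array, of male 26 at 0.03 mg/kg, 5.06% were, and there 7 of the 8 probes, all but Akr1d1, were not above background. The labels say that 1 male array failed quality control, and whether it is this one is not known here. Values without male 26 are given beside the results on the 8 genes whose call they change. Called, here, means an adjusted p by limma of 0.05 or less over all 17661 probes together with a fold change (FC) of 1.5 or more. All 7 hepatocyte markers (such as Alb and Apoa1) were above background on every array of each group except males at 0.03 mg/kg. In that group, which held male 26, 6 of the 7 were. None of the 7 was called against the controls of its sex at any dose. In males at 2 mg/kg all 7 differences were below 0 (median -0.41), and those of Alb at -0.51 ± 0.13 (adjusted p = 0.0054) and Ttr at -0.50 ± 0.14 (adjusted p = 0.014) passed the p limit but not the FC limit. The part of these shifts in the male results was not tested.

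The genes fall into neighbouring groups in the rat genome. Akr7a3 and Akr7a2 are neighbouring protein-coding genes on chromosome 5, which also holds Akr1a1. Akr1b7 and Akr1b8 lie in the aldose reductase cluster on chromosome 4 with Akr1b1 and Akr1b10, and Akr1d1 is on chromosome 4 as well. Akr1c14 belongs to the Akr1c cluster on chromosome 17. A RefSeq table of promoters on the GRCr8 assembly held 6 of the 8 genes (not Akr1b1 and Akr1d1). The sequences of 4 are shown, because Akr7a3 had the largest furan response and Akr1b7 and Akr1b8 the largest sex differences of the 8 genes, and Akr7a2 is the neighbour of Akr7a3. Each sequence is the 250 bases before the annotated start, read 5′ to 3′ along the gene, at chr5:156876471-156876720 (+ strand, Akr7a3), chr5:156835339-156835588 (+, Akr7a2), chr4:64043720-64043969 (+, Akr1b7) and chr4:63964171-63964420 (+, Akr1b8). Capitals mark letters that matched a searched motif on either strand.
Akr7a3: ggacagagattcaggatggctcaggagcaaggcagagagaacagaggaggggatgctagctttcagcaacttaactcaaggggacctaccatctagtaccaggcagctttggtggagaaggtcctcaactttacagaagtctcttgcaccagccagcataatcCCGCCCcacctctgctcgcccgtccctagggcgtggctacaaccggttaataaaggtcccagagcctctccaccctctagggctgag
Akr7a2: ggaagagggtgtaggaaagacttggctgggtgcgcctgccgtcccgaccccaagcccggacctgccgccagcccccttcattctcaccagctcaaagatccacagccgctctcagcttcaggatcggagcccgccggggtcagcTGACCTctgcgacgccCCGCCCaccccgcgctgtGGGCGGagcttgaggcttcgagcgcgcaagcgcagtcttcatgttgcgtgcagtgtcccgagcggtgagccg
Akr1b7: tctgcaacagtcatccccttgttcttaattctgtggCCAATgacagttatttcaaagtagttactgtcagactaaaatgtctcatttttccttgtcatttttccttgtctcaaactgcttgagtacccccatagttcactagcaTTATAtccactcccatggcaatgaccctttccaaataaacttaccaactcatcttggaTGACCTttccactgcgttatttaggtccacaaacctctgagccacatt
Akr1b8: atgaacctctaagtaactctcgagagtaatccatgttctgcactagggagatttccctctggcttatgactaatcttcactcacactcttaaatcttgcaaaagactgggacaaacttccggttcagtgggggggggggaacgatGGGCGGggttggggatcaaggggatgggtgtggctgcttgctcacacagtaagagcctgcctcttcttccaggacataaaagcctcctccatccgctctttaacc

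On both strands 8 motifs were searched, and no match overlapped another. The GC box, GGGCGG, stood in the windows of Akr7a3, Akr7a2 and Akr1b8 and in 30.5% of all 33469 promoters of the table. The core of nuclear receptor sites, AGGTCA, stood in those of Akr7a2 and Akr1b7 (14.1% of all promoters). The CCAAT box, spelled CCAAT, stood in those of Akr1b7 and Akr1c14 (34% of all). The TATA box, spelled TATAA, stood in that of Akr1b7 alone among the 6 genes (24% of all). The remaining motifs were in none of the 6 windows. Of these, the AP-1 motif TGANTCA was in 6.34% of all promoters and the core of the antioxidant response element, TGACNNNGC, in 10.1%. The STAT motif TTCNNNGAA was in 7.67% and the forkhead motif TGTTTAC in 3.21%. A match is a run of letters in this window and describes no binding. The GC content was 55.6% for Akr7a3, 67.6% for Akr7a2, 40.4% for Akr1b7 and 50.8% for Akr1b8.

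In male liver at 2 mg/kg furan, 4 of the 8 genes rose and none fell. The rises were Akr7a3, Akr1b8, Akr1b7 and Akr1a1, which are spread over the Akr7a, Akr1b and Akr1a branches of the family. Over all probes 3.83% were called in this comparison, and 2.44% were called higher. The median difference of the 8 genes was 0.60 on the log2 scale against -0.022 for all probes. In female liver at 2 mg/kg 1 of the 8 genes was called, Akr7a3, where 0.657% of all probes were called. The female median of the 8 genes was 0.13 against 0.0077 for all probes. All levels by dose and sex are in the plot of single arrays.

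**Figure D1:**
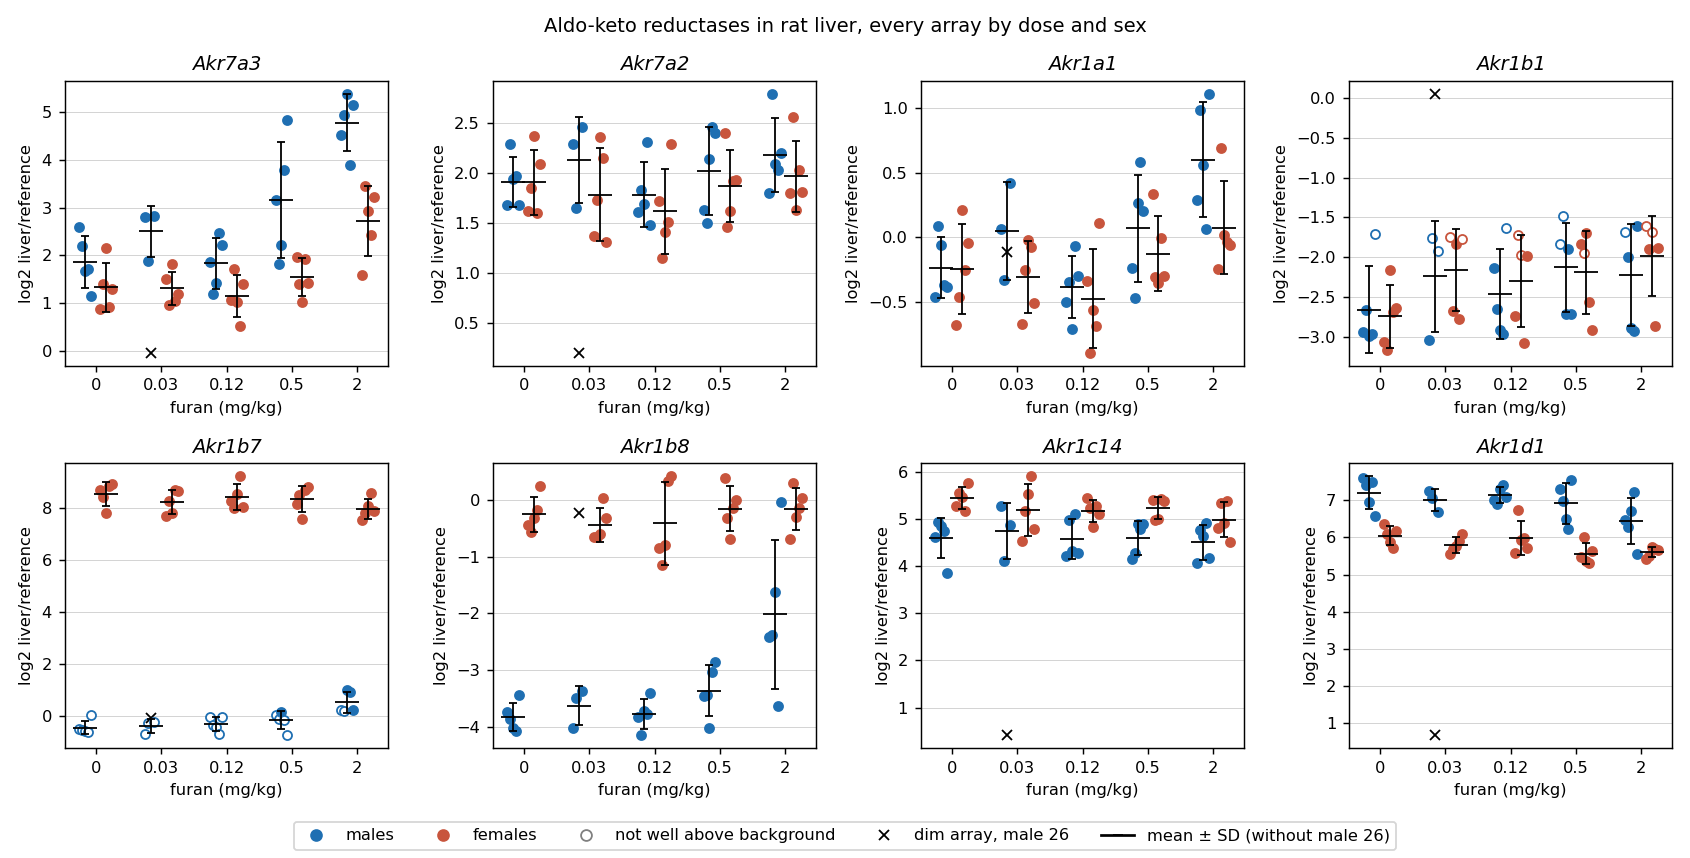
Log2 ratio of liver over reference (y axis) for the 8 genes on each of the 49 arrays, by furan dose in mg/kg (x axis) and sex. Bars are group means with SD, open points were not well above background, and the cross is the dim array of male 26. Akr7a3 of the 5 males at 2 mg/kg sits between 3.90 and 5.39, above all 5 control males, and Akr1b7 of the females lies far above that of the males at every dose.

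Akr7a3, known as aflatoxin aldehyde reductase because it reduces the dialdehyde of aflatoxin B1, gave the largest response of the 8 genes in both sexes. Its ratios in control males 2 to 6 were 2.59, 2.19, 1.67, 1.71 and 1.15. The 5 males at 2 mg/kg gave 3.90, 4.53, 4.96, 5.17 and 5.39. Every treated male was above every control male. The difference was 2.93 ± 0.39 (SE, adjusted p = 1.1e-05 by limma), a 7.60-fold rise with a 95% interval of 4.36 to 13.2. It was the 4th largest rise of the 17661 probes in males. Akr7a3 and Akr1b7 were the 2 genes of the set whose treated and control males did not overlap, which held for 4.25% of all probes.

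In females the Akr7a3 ratios were lower at 2 mg/kg than in males. Control females gave 0.87, 0.92, 1.29, 1.41 and 2.15. Females at 2 mg/kg gave 1.59, 2.44, 2.93, 3.23 and 3.45, so 1 treated female (rat 82, at 1.59) lay within the control range. The difference was 1.77 ± 0.41 (adjusted p = 0.018 by limma), a 3.40-fold rise with a 95% interval of 1.92 to 6.03, and it was the 3rd largest rise among all probes in females. The female call was lost without the slide block, where the difference was 1.40 ± 0.44 (adjusted p = 0.088), and without control female 2, where the adjusted p was 0.058. Within the 2 slides that held both groups, the differences were 1.30 and 1.56.

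The male rise of Akr7a3 was larger than the female rise by 1.16 ± 0.55 on the log2 scale, with an interval of 0.05 to 2.26. This difference between the sexes did not pass over all probes (adjusted p = 0.32, and 0.13 without male 26). Within the 3 slides that held control and treated males, the male differences ran from 1.30 to 4.01. The male call held under all 15 settings tried, with differences from 2.83 to 3.49.

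At 0.5 mg/kg the males were widely spread for Akr7a3. Males 63, 65, 62, 68 and 70 gave 1.82, 2.21, 3.17, 3.79 and 4.83, so 2 of them (63 and 65) fell within the control range and 3 lay above it. The difference from control was 1.12 ± 0.40 and did not pass (adjusted p = 0.36, unadjusted p = 0.0080). It was called when arrays were weighted by their quality (1.31 ± 0.31, adjusted p = 0.021 by limma). At 0.12 mg/kg the males gave 1.20 to 2.47, and at 0.03 mg/kg the 3 males other than the dim array gave 1.88, 2.81 and 2.82, of which 2 lay above all controls. The differences from control did not pass at either dose. At 0.03 mg/kg the fit included the dim array, at -0.04, and gave a difference of -0.10 (adjusted p = 0.91 by limma). Without the dim array the mean ratio of that group was 2.50, against 1.86 in control males, and the difference was not called. Females at 0.03, 0.12 and 0.5 mg/kg spanned 0.96 to 1.81, 0.53 to 1.71 and 1.03 to 1.97, which overlapped the control range at each dose, and none of these doses passed.

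Akr7a2, which reduces succinic semialdehyde and stands next to Akr7a3 on chromosome 5, moved much less. Control males gave 1.68, 1.68, 1.94, 1.97 and 2.29 and males at 2 mg/kg gave 1.80, 2.03, 2.09, 2.20 and 2.79. The groups overlapped, and the difference of 0.33 ± 0.16 did not pass (adjusted p = 0.17). Without male 26 it was 0.34 ± 0.083 with an adjusted p of 0.0027 by limma, still under the FC limit of 1.5. Control females gave 1.60 to 2.37 and females at 2 mg/kg 1.64 to 2.56, with a difference of 0.46 ± 0.17 (adjusted p = 0.13). The 2 neighbours with GGGCGG before their starts thus gave male differences of 2.93 and 0.33, and their difference from each other was not tested.

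Akr1a1, aldehyde reductase, reduces many aldehydes and turns glucuronate into gulonate on the way to ascorbate, which rats make. Control males gave -0.46, -0.38, -0.37, -0.06 and 0.09. Males at 2 mg/kg gave 0.06, 0.29, 0.56, 0.98 and 1.11, and only the lowest of them (male 86) lay below the highest control. The rise was 0.87 ± 0.12 (adjusted p = 1.5e-05 by limma), or 1.83-fold with an interval of 1.54 to 2.17. It was positive within each of the 3 shared slides, at 0.52, 0.92 and 1.49. The male call was lost when the liver channel was used without the reference, and held in the other 14 settings.

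In females the Akr1a1 change was smaller. Control females gave -0.68, -0.46, -0.25, -0.04 and 0.21 and females at 2 mg/kg gave -0.24, -0.06, -0.04, 0.02 and 0.69, where the highest came from rat 83. The difference was 0.52 ± 0.13 (adjusted p = 0.025 by limma), a 1.43-fold rise that stayed under the FC limit. Without the slide block it was 0.32 and did not pass (adjusted p = 0.34). The male rise exceeded the female one by 0.36 ± 0.17, which did not pass (adjusted p = 0.32). At 0.5 mg/kg the differences were 0.22 ± 0.12 in males (adjusted p = 0.66) and 0.26 ± 0.12 in females (adjusted p = 0.42).

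The 3 genes of the Akr1b branch behaved differently from one another. Akr1b8, an aldose reductase-like enzyme that reduces aldehydes and is induced by fibroblast growth factor, was low in control males, at -4.07, -4.02, -3.86, -3.74 and -3.44. Males at 2 mg/kg gave -3.63 (male 86), -2.41 (male 81), -2.38 (male 83), -1.63 (male 84) and -0.04 (male 87). Male 86 lay within the control range and the other 4 above it. The rise was 1.81 ± 0.46 (adjusted p = 0.0072 by limma), or 3.52-fold with an interval of 1.83 to 6.75, and ranked 22nd among all probes. Male 87 counted for much of this value, since without it the difference was 1.36 ± 0.45 and the call was lost (adjusted p = 0.056). Within the 3 shared slides the difference was 0.11, 2.43 and 3.40. In females Akr1b8 was between -0.57 and 0.24 in controls and between -0.68 and 0.30 at 2 mg/kg, with a difference of -0.11 ± 0.48 (adjusted p = 0.94). Within the 2 slides that held both female groups, the female difference was 0.31 and 0.63.

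Akr1b7, an aldose reductase-like protein first known from the vas deferens and adrenal, was not above background in any control male. Those 5 males gave -0.61, -0.57, -0.53, -0.48 and 0.04. At 2 mg/kg the males gave 0.21 (male 83), 0.25 (male 87), 0.26 (male 81), 0.95 (male 86) and 1.0 (male 84), and 3 of the 5 (males 84, 86 and 87) were above background. Every treated male was above every control male. Because the controls had no signal well above background, the size of the rise is uncertain. With control signals set no lower than the dimmest signal above background on their array, the fold was 1.70. Treated males 81 and 83 were not above background either. On the log2 ratios with the slide block the difference was 1.03 and was called (adjusted p = 0.0032 by limma). The call was lost when arrays were centred on their median in place of loess, with and without male 26. At 0.5 mg/kg 1 of 5 males was above background, and at 0.12 and 0.03 mg/kg none was.

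Female Akr1b7 was high in every rat. Control females gave 7.82, 8.42, 8.71, 8.84 and 8.93 and females at 2 mg/kg gave 7.55, 7.83, 7.89, 8.07 and 8.58. The groups overlapped, and the difference of -0.50 ± 0.24 did not pass (adjusted p = 0.28). The furan effect on Akr1b7 was higher in males than in females by 1.52 ± 0.33 (interval 0.86 to 2.18, adjusted p = 0.041 by limma), as measured on control males that were not above background. It was the 1 of the 8 genes called for a difference between the sexes, where 0.108% of all probes were called. Without the slide block the value was 1.52 ± 0.35 and did not pass (adjusted p = 0.19), and the call was made in 8 of 15 settings. Leaving out each array in turn lost the call in 19 of 49 fits, with adjusted p from 0.016 to 0.099. For Akr1b8 the corresponding difference was 1.92 ± 0.64 (interval 0.62 to 3.22), which did not pass (adjusted p = 0.16, or 0.062 without male 26). At an unadjusted p under 0.05, 4 of the 8 genes had a larger effect in males and none a smaller one, where 14.5% of all probes were under that limit.

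Akr1b1, aldose reductase, which reduces glucose to sorbitol in the polyol pathway, was dim in liver and above background on 34 of the 49 arrays. Control males gave -2.99, -2.97, -2.95, -2.67 and -1.71, the last of them not above background, and males at 2 mg/kg gave -2.94, -2.89, -2.0, -1.68 and -1.61. The difference with the slide block was 0.10 ± 0.18 in males (adjusted p = 0.76) and 0.05 ± 0.19 in females (adjusted p = 0.93). Its signal was near background on many arrays, so a change could be missed.

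**Figure D2:**
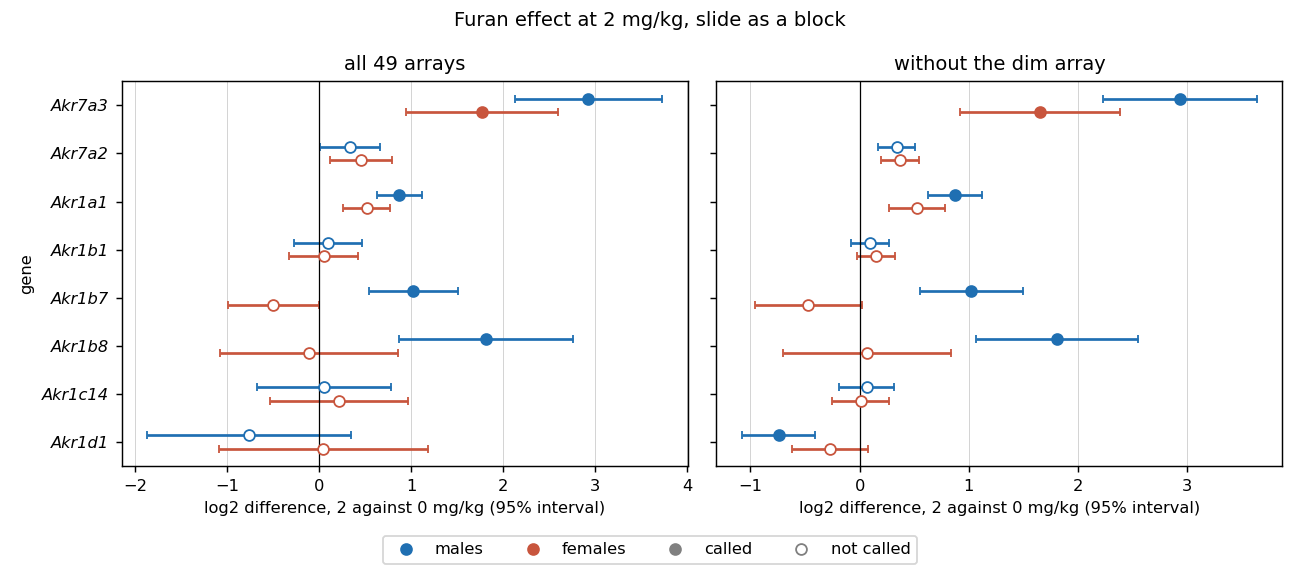
Log2 difference between 2 and 0 mg/kg furan (x axis, bars are 95% intervals) for the 8 genes in males and females, with slide as a block, for all 49 arrays and without male 26. Filled points were called. Akr7a3 stands highest in both sexes, at 2.93 in males and 1.77 in females, and the male interval of Akr1d1 narrows without male 26.

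Akr1c14 and Akr1d1 act on steroids. Akr1c14 is the 3-alpha-hydroxysteroid dehydrogenase of rat liver, and Akr1d1 is the steroid 5-beta-reductase, an enzyme of bile acid synthesis. Akr1c14 in males was 3.87, 4.62, 4.76, 4.86 and 4.94 in controls and 4.07, 4.18, 4.64, 4.77 and 4.92 at 2 mg/kg. The difference was 0.05 ± 0.36 (adjusted p = 0.94). In females the groups lay at 5.18 to 5.77 and 4.51 to 5.39, with a difference of 0.22 ± 0.37 (adjusted p = 0.82). Without the slide block the female difference was -0.46 ± 0.44 and did not pass either (adjusted p = 0.50).

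Akr1d1 in control males 6, 4, 3, 5 and 2 was 6.58, 6.94, 7.42, 7.50 and 7.61. At 2 mg/kg males 87, 83, 81, 84 and 86 gave 5.54, 6.28, 6.46, 6.70 and 7.23, with the 3 lowest below all controls. The difference over all 49 arrays was -0.76 ± 0.54 and did not pass (adjusted p = 0.38). Male 26, whose Akr1d1 ratio was 0.67 where the other 3 males of its group gave 6.69 to 7.26, decided this call. Without it the difference was -0.74 ± 0.16 and Akr1d1 was called lower (adjusted p = 0.0011 by limma), so that 5 of the 8 genes were called in males where 5.09% of all probes were. The difference within the 3 shared slides was -0.39, -0.80 and -1.04. In females Akr1d1 was 5.71 to 6.37 in controls and 5.41 to 5.75 at 2 mg/kg, and the difference was 0.05 ± 0.56 with male 26 and -0.27 ± 0.17 without it (adjusted p = 0.98 and 0.34). Within the 2 slides that held both female groups, the female difference was -0.68 and -0.37.

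**Figure D3:**
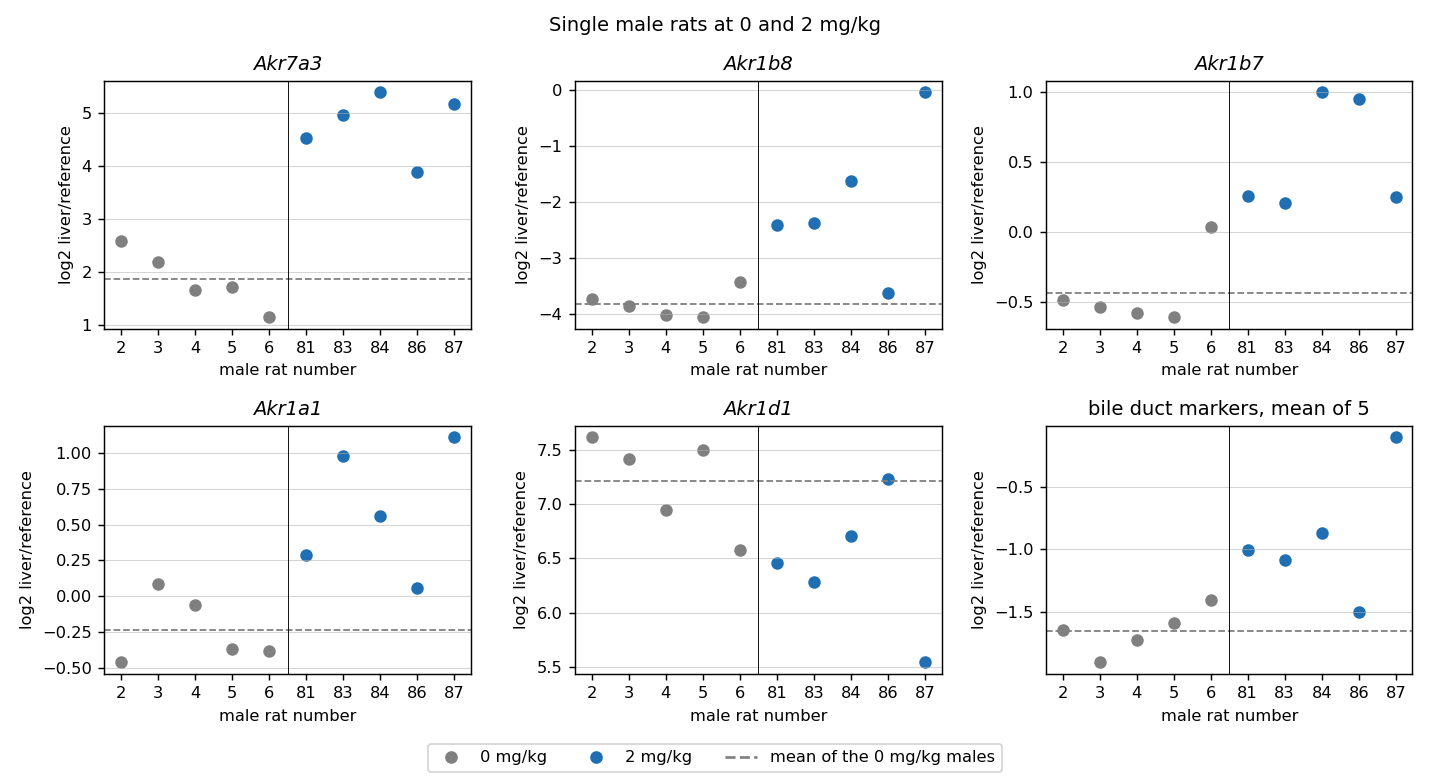
Log2 ratio of liver over reference (y axis) of 5 genes and of the mean of 5 bile duct markers in each control male and each male at 2 mg/kg furan (x axis, rat numbers). The dashed line is the mean of the 0 mg/kg males. Male 86 has the lowest Akr7a3, Akr1b8 and Akr1a1 of the treated males and the highest Akr1d1, and male 87 has the highest Akr1b8 at -0.04 and the lowest Akr1d1 at 5.54. Akr1b7 does not follow this order, at 0.95 in male 86 and 0.25 in male 87.

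The same treated males stood at the ends of the range for several genes. These are ratios without the slide block, and male 86 was on slide 2 and male 87 on slide 8. The part of slide in this order was not tested. Male 86 had the lowest Akr7a3, Akr1b8 and Akr1a1 of the 5 and the highest Akr1d1. Male 87 had the highest Akr1b8 and Akr1a1, and the lowest Akr1d1. This order did not hold for every gene. Akr1b7 was higher in male 86 (0.95) than in male 87 (0.25), and Akr7a3 was highest in male 84 (5.39). Markers of bile duct cells moved too, with 3 of the 5 tested called higher in males at 2 mg/kg, where 2.44% of all probes were. Without male 26 there were 4, with Spp1 at 0.69 ± 0.19 (adjusted p = 0.0083 by limma), where 5.09% of all probes were called. In females none was called over all 49 arrays, and 1 (Epcam) was called without male 26, as were 250 of the 17661 probes. At an unadjusted p under 0.05 by limma 3 were higher in females, where 17.7% of all probes were under that limit. In males Epcam rose by 0.92 ± 0.17 (adjusted p = 0.00032), Cftr by 0.94 ± 0.20 (adjusted p = 0.0018) and Krt19 by 0.76 ± 0.23 (adjusted p = 0.023), all by limma. The mean ratio of the 5 bile duct markers ran from -1.91 to -1.41 in control males and from -1.50 (male 86) to -0.10 (male 87) at 2 mg/kg. In females it ran from -1.86 to -1.51 in controls and from -1.32 to -0.88 at 2 mg/kg. These means carry no slide block either. Females 82 and 92 at 2 mg/kg were on slide 8 and female 85 on slide 5, which held no control female. The part of slide in these means was not tested. Of the markers of Kupffer, stellate, endothelial and red cells, 6, 6, 3 and 3 were tested and none was called in either sex at the highest dose. At an unadjusted p under 0.05 by limma, 3 stellate markers were higher and 2 red cell markers lower in males, and none of either list in females. Of all probes 27.4% were under that limit in males and 17.7% in females. Without male 26, 2 stellate markers were called higher and 1 red cell marker lower in males, where 5.09% of all probes were called. The part of bile duct or other cells in the changes of the 8 genes was not tested.

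At the lower doses none of the 8 genes was called in either sex. In males the share of all probes called was 0% at 0.03 mg/kg, 0.176% at 0.12 mg/kg and 0.142% at 0.5 mg/kg. In females it was 0.00566%, 0.00566% and 0.017%. At an unadjusted p under 0.05 by limma there were 4, 0 and 1 of the 8 genes in males and 0, 0 and 1 in females, in the same order of doses. The 4 at 0.03 mg/kg in males were Akr1b1, Akr1b8, Akr1c14 and Akr1d1, the group that held the dim array, and 24.5% of all probes were under that limit there. The 1 in males at 0.5 mg/kg was Akr7a3 and the 1 in females was Akr1a1, where 8.27% and 11.4% of all probes were under it, so these counts are near the background share.

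Tested over the 4 doses together, 4 genes changed in males, where 12.2% of all probes did. They were Akr7a3 (adjusted p = 6.5e-06), Akr1a1 (adjusted p = 1.9e-05), Akr1b7 (adjusted p = 0.017) and Akr1b8 (adjusted p = 0.029), by limma's moderated F test. In females 1 gene passed, Akr1a1 (adjusted p = 0.029), where 0.798% of all probes did. Without male 26 the counts were 6 in males and 3 in females, where 18.2% and 3.02% of all probes passed. Without the slide block they were 2 and 0, where 1.44% and 0.0906% passed.

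Without furan, the sexes differed most, among the 8 genes, in Akr1b7 and Akr1b8. Control males were lower than control females in these 2, the only ones of the 8 called over all 49 arrays, where 5.5% of all probes were called and 3.02% were called lower. Akr1b7 was 333-fold higher in females with male signals set no lower than the dimmest signal above background on their array. The log2 ratios gave an adjusted p of 5.8e-27 by limma, and their measured difference was the lowest of all 17661 probes. Akr1b7 passed the filter on dim signals through female groups alone, so its call is no separate support for a difference. At 2 mg/kg, where 3 of 5 males were above background, that floor on male signals changed nothing, and the measured ratio was 158-fold. It is not a lower bound, since the remaining males were not above background. The male minus female difference of Akr1b8 was -3.65 ± 0.45 (adjusted p = 1.6e-07), with all control males from -4.07 to -3.44 and all control females from -0.57 to 0.24.

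Within the 4 slides that held controls of both sexes, the Akr1b8 difference ran from -4.10 to -3.30. Akr1b7 was well above background in all control females and in none of the control males. At 2 mg/kg furan Akr1b8 still lay lower in most males, though male 87, at -0.04, fell within the female range of -0.68 to 0.30. The levels of the 2 steroid enzymes did not overlap between control males and females either. Akr1c14 was lower in males, with a difference of -0.61 ± 0.35 that did not pass (adjusted p = 0.26) and of -0.71 ± 0.12 without male 26 that did (adjusted p = 3.2e-05 by limma). Akr1d1 was higher in males by 1.35 ± 0.53 (adjusted p = 0.083), and by 1.19 ± 0.16 without male 26 (adjusted p = 6.3e-07). Groups that did not overlap were 4 of 8 genes and 6.3% of all probes. Akr7a3 at 0.74 ± 0.38 (adjusted p = 0.20), Akr7a2 at 0.20 (adjusted p = 0.42) and Akr1a1 at 0.13 (adjusted p = 0.50) did not pass, nor did Akr1b1.

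Carboxypeptidase Cpa1, a gene of the exocrine pancreas, also stood apart between the sexes. It was above background in none of the control males. With the same floor on male signals it was 403-fold higher in control females (adjusted p = 3.6e-22 by limma for the log2 ratios). It was the 1 marker called of the 5 pancreas markers tested, where 5.5% of all probes were called. Since no control male was above background, this call is no separate support for a difference. Of the 9 pancreas markers on the array, 3 were above background on every control female array and 1 on every control male array. In females 2 were above on no control array, trypsinogen Prss1 and lipase Pnlip, and in males 4 were, these 2 among them. The part of pancreas tissue in the Cpa1 signal was not tested. None of the pancreas markers was called with furan over all 49 arrays. In females at the highest dose 3 were lower with an unadjusted p under 0.05 by limma, where 17.7% of all probes were under that limit. Cpa1 was called lower in these females without male 26.

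**Figure D4:**
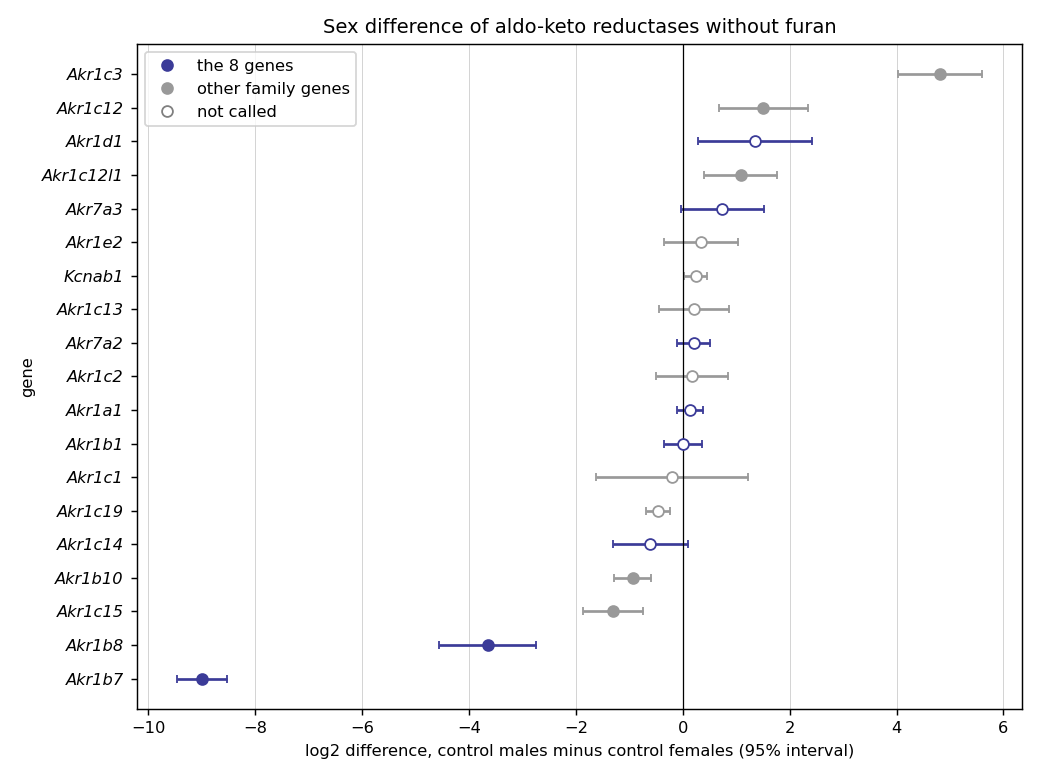
Log2 difference between control males and control females (x axis, bars are 95% intervals) for the 8 genes and for 11 other family genes that were tested. Filled points were called. Akr1b7 and Akr1b8 stand at the female end and Akr1c3 at the male end. The differences of Akr1b7, Akr1c3 and Akr1b10 rest on 1 sex not above background.

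Other genes of the family were taken as a list of 17 names, of which 11 were tested. None was called at 2 mg/kg in males or in females, with 3 and 0 of them at an unadjusted p under 0.05 by limma. Of all probes 27.4% and 17.7% were under that limit. Their median difference was -0.26 in males and 0.06 in females. Without male 26, 2 were called in males, Akr1c13 higher by 0.78 ± 0.10 (adjusted p = 1.9e-06) and Akr1c12 at -0.74 ± 0.20 (adjusted p = 0.0057). Of all probes 5.09% were called in that fit. Akr1c19 had a male difference of 0.44 ± 0.12 (adjusted p = 0.0089), under the FC limit. In the controls 3 were called higher in males and 2 lower, where 5.5% of all probes were called. Akr1c3, a 17-beta-hydroxysteroid dehydrogenase, had no control female above background. With the same floor on female signals it was 18.7-fold higher in males (adjusted p = 8.2e-12 by limma for the log2 ratios). It passed the filter through male groups alone, so its call is no separate support for a difference. Akr1c12 and Akr1c12l1 were 1.51 and 1.08 higher on the log2 scale. Akr1c15 was lower, at -1.30, and Akr1b10, which lies between Akr1b8 and Akr1b7, was called lower as well, with no control male above background. It passed the filter through the control females alone, where 4 of 5 arrays were above background, so its call is no support for a difference. Akr1c genes are close copies of one another, and how far their probes read each other's transcripts was not tested.

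Of 19 other enzymes tested that reduce carbonyls or oxidise aldehydes, 3 rose and 1 fell in males at 2 mg/kg. Of all probes 3.83% were called there. Adh4, an alcohol dehydrogenase, rose by 1.37 ± 0.34 (adjusted p = 0.0055), Ptgr1, which reduces alkenals, by 0.80 ± 0.18 (adjusted p = 0.0034) and the quinone reductase Nqo1 by 0.74 ± 0.25 (adjusted p = 0.039). The mitochondrial aldehyde dehydrogenase Aldh2 fell by 0.61 ± 0.14 (adjusted p = 0.0035). The list's median was -0.076. In females none was called, and the median was 0.042. There 3 were at an unadjusted p under 0.05 by limma, where 17.7% of all probes were under that limit. The effect on Ptgr1 differed between the sexes by 1.30 ± 0.26 (adjusted p = 0.024). In controls Aldh1b1, Adh4, Adh5 and Ptgr1 were lower in males, with differences of -2.38, -1.37, -1.0 and -0.75. None was called higher over all 49 arrays, and 1, Hagh, was without male 26 (0.67 ± 0.074, adjusted p = 9.5e-09).

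The 7 genes of the ascorbate and glucuronate pathway, to which Akr1a1 also belongs, were all tested. Cryl1, which oxidises gulonate, rose by 2.29 ± 0.33 in males (adjusted p = 2.2e-05) and by 1.60 ± 0.34 in females (adjusted p = 0.0094). Ugdh, which makes UDP-glucuronate, rose by 0.86 ± 0.18 in males (adjusted p = 0.0015). The list's median was -0.27 in males and 0.16 in females. Gulo, the last enzyme of ascorbate synthesis, had a male difference of -0.54 ± 0.29 (adjusted p = 0.22). Without male 26, Rgn, which acts before Gulo, was called lower in males at -0.67. In the polyol pathway, Sord and Khk gave -0.41 and -0.33 in males and were not called in either sex. Between the controls Ugp2 was called higher in males, by 0.70 ± 0.23 (adjusted p = 0.035), and without male 26 Gulo (0.64 ± 0.14, adjusted p = 0.0012) and Rgn (0.59 ± 0.14, adjusted p = 0.0017) were as well.

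Of 17 genes that act with Akr1d1 and Akr1c14 on bile acids and steroids, none was called in males at 2 mg/kg, and the median was -0.50. At an unadjusted p under 0.05 by limma there were 4, where 27.4% of all probes were under that limit. Without male 26, 5 were called lower: Slc27a5 and Baat, which conjugate bile acids, Cyp8b1, Cyp7b1 and Hsd17b6. Of all probes 5.09% were called in that fit. Cyp7a1, the rate-limiting enzyme of bile acid synthesis, had a male difference of -1.05 ± 0.58 (adjusted p = 0.24). In females Hsd11b1 was called higher by 1.29 ± 0.36 (adjusted p = 0.047). The female median was 0.053, and -0.19 without male 26. In controls Hsd11b1, Cyp7b1 and Hsd3b7 were higher in males by 3.89, 2.53 and 0.90, and Srd5a1, the steroid 5-alpha-reductase, was lower at -1.95. Without male 26 Cyp7a1 was called lower in control males too, at -1.57 ± 0.51 (adjusted p = 0.024).

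The genes most like Akr7a3, Akr1b8 and Akr1a1 were taken as the 3 with the highest Pearson r over the 10 group means, among 9847 genes. These are descriptions, since all genes share the same arrays. For Akr7a3 they were Parp3, Mrpl53 and Coa3 (r of 0.963, 0.961 and 0.959), and without male 26 Anxa4 (r = 0.990), Atp5if1 and Tmbim1. For Akr1b8 they were Rtn4 (r = 0.988), Pla1a and Disp1, of which Disp1 alone was kept without male 26, and for Akr1a1 they were Xpo1 (r = 0.973), Parp3 and Tmem41a, of which none was kept.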

How the data were processed

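Agilent 2-colour arrays were read for 49 livers. The deposited scanner files hold the median pixel intensity of each spot and its local background, 0 or 1 marks of spot quality as a score, and a log10 ratio that Agilent Feature Extraction 10.7.3.1 background subtracted and dye normalised, per the file headers. Log2 ratios normalised by the authors are in the deposited series matrix; 46 of its 49 columns matched an array of their group but 7 their own, so rat numbers are those of the scanner files, the matrix served only as an alternative without slide (0 columns unused).

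Of 62976 spots on an array 58717 were for transcripts. Signals were corrected by normexp (offset 50) and normalised by loess in limma 3.58.1 (R 4.3.3, version 1.17.8 of data.table), and non-uniform or deviating spots were left out. For the folds with a floor, the liver channel was taken after loess and Aquantile normalisation between arrays. Gene symbols came from RefSeq on GRCr8 (18004 probes, 15154 symbols), while the array design was annotated on rn4. The fit had 1 mean per group and 8 slides as a fixed block (32 residual degrees of freedom), and p-values were 2-sided and adjusted by Benjamini-Hochberg. The number of arrays limits the precision. The scripts were tested on simulated data.

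The 8 genes, the lists and the tests were chosen with earlier results of these data known. All 8 genes were named whatever their change, and the called genes of each list. Alternatives were no slide term, slide as a random block, leaving out male 26 or each array in turn, array weights, other normalisations and filters, a block for the rat number, and the series matrix. The genes most like Akr1b7 are not reported here.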

Additional observations from a re-analysis of the deposited data

Results flagged for a closer look

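Among the 80 sets of 4 or 5 arrays tested (8 genes in 10 groups), 5 held 1 array whose gap to its nearest neighbour was large against the range of its group, and chance alone gives about 5% of groups. Akr1b7 was 0.0381 in control male 6, above the other 4 control males, and none of the 5 was above background. Akr1b1 was -1.71 in the same control male 6, above the other 4, and not above background there. In females at 2 mg/kg, Akr1b1 was -2.86 in rat 90, below the other 4, and Akr1a1 was 0.69 in rat 83, above the other 4. Akr1d1 was 0.67 in male 26 at 0.03 mg/kg, below the other 3 males, on the array with the lowest share of spots above background. The furan effect on Akr1b7 at 2 mg/kg differed between the sexes by 1.52 (males minus females, adjusted p = 0.041 by limma), with control males not above background.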

How the results depend on the processing

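Over all 49 arrays with slide as a block, the genes called were 4 in males at 2 mg/kg, 1 in females at 2 mg/kg, 1 for the difference between the sexes at that dose, 2 between the control sexes, and 4 in males and 1 in females over all doses. The male count at 2 mg/kg stayed within 1.5 times under every alternative. For females at 2 mg/kg the count was 0 with no slide term, with median centring and with the liver channel alone. The count for the difference between the sexes was 0 with no slide term, with no slide term and without male 26, with median centring (with and without male 26), with the liver channel alone, with no filter, and with the series matrix without slide, and it was 2 with array weights. Between the control sexes it was 4 without male 26 (with and without slide, with median centring and with the liver channel alone), with array weights, with the liver channel alone, and with the series matrix. With array weights 1 gene was called in males at 0.5 mg/kg. Over all doses in males the count was 2 with no slide term and with median centring. Over all doses in females it was 0 with no slide term (with and without male 26), median centring, the liver channel alone and the series matrix. It was 3 without male 26 and with array weights, and 2 with slide as a random block, the scanner's ratio, the stricter filter, the replicate block, and the liver channel alone without male 26. No called value reversed its direction. Of those not called, the female difference at 2 mg/kg turned from 0.22 to -0.46 for Akr1c14 with no slide term, and from 0.05 to -0.27 for Akr1d1 without male 26. The cause of these changes was not tested.

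Leaving out each array in turn gave 0 to 4 genes in males at 0.03 mg/kg (4 without male 22), 3 to 5 in males and 0 to 1 in females at 2 mg/kg, 0 to 1 for the difference between the sexes, 2 to 4 between the control sexes (4 without male 26), 2 to 7 in males over all doses (7 without male 22, 2 without male 84) and 0 to 3 in females over all doses. The other counts stayed at 0. Rats of both sexes shared a number within a dose in 8 pairs, whose residuals correlated at -0.21 to 0.29, over 0.1 in 2 of them. They were treated as separate rats, and so few pairs cannot show whether they share more than a number. With the number as a replicate block the counts were those of the other fit but for the 2 in females over all doses. The alternatives without male 26 under median centring and with the liver channel alone, and the series matrix without slide, were chosen after seeing the data. A mean over several probes could not be run, since each gene had 1 probe, and the series matrix was not fitted with slide.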
